A study of Rattus norvegicus with 12 samples.

Results

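The transcripts of 36 genes that act in cell division were followed in RNA sequencing of rat bone marrow cells. The genes were listed by symbol, 19 of them for mitosis and 17 for DNA replication, and each was read from the gene table row that carries its symbol. A row was found for 35 of the 36, among 18616 genes in the BMSC table and 19355 in the BF table. Of the mitosis cyclin Ccnb2 only the promoter was used here, and its level was not analysed.

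The 12 libraries form 4 groups of 3 wild-type replicates, all grown from mesenchymal stem cells of the bone marrow (BMSCs) in chondrogenic induction medium. Untreated control cells make up BMSC-C, while cells of BMSC-CT were given connective tissue growth factor (CTGF) for 1 week followed by TGF-β1, which together induce a fibrous matrix. BF-C and BF-D are labelled as fibrotic BMSCs, and the series design describes induced fibrotic chondrocytes, here untreated (BF-C) or treated with docetaxel (BF-D), a taxane that stabilizes microtubules. The sources used here give neither the dose and time of docetaxel, nor how the BF cells were derived. They do not say if replicates came from separate cultures, and p-values then measure only the spread between these libraries, which may be technical.

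Mitosis genes and DNA replication genes serve successive phases of the cell cycle. Replication genes load and run the MCM helicase, supply nucleotides and copy DNA in S phase, and E2F factors, held back by retinoblastoma proteins, switch many of them on. Mitosis genes build the spindle, attach chromosomes to it and divide the cell, and many are switched on later through a promoter element called the cell cycle genes homology region (CHR), often beside CCAAT boxes bound by NF-Y. Taxanes act on the same spindle microtubules that these proteins use, and they hold dividing cells in mitosis.

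Promoters of the modules held these elements at different counts, which is why a few promoters are shown first. RefSeq promoters of the rat assembly GRCr8, each running from 250 bases before to 50 after a gene's start, were matched for 29 of the 36 members, with 3 entries for Uhrf1. The letters TTTGAA or TTCGAA (CHR), CCAAT, and TTTCCCGC, TTTCGCGC, TTTGCCGC or TTTGGCGC (E2F) were searched on both strands. CHR letters were in 12 of 16 mitosis promoters and 4 of 15 replication promoters, against 19.7% of the 33469 promoters in the table. E2F letters were in 1 of 16 and 9 of 15, against 2.14% of all promoters, and CCAAT was in 13 of 16 and 10 of 15, against 37.5%. CHR and CCAAT stood together in 11 of 16 mitosis promoters and 2 of 15 replication promoters, against 7.95% of all. A match is a description of these letters and does not show that a factor binds.

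The 150 bases before the start of 8 members are given 5′ to 3′ along the gene, with every match in capitals. Cdk1, Prc1, Cdc20 and Top2a show the CHR and CCAAT layout, and Cdk1 was the mitosis member that also held E2F letters. Mcm2 and Mcm7 show E2F letters, which overlap on the opposite strands in Mcm2 and overlap a CCAAT by 1 base in Mcm7. Both also held CHR letters in the searched window outside the bases shown, 215 and 175 bases before the start in Mcm2 and 241 in Mcm7. Rrm1 and Ccne1 are the members whose level passed the test between BMSC-CT and BMSC-C: Rrm1 held a CHR match within these bases, and Ccne1 held none of the 3 motifs there.
Cdk1 (GRCr8 chr20:19265143-19265292, plus strand): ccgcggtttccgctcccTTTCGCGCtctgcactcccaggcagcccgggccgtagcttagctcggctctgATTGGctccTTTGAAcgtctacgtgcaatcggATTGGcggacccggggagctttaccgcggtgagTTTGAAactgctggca
Prc1 (GRCr8 chr1:143659331-143659480, plus strand): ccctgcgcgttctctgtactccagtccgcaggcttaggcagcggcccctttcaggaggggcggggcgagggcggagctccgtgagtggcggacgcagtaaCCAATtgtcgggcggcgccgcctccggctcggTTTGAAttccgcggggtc
Cdc20 (GRCr8 chr5:137255800-137255949, minus strand): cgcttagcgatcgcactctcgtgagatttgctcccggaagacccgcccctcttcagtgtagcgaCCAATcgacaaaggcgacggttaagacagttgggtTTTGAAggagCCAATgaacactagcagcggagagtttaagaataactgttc
Top2a (GRCr8 chr10:84473094-84473243, minus strand): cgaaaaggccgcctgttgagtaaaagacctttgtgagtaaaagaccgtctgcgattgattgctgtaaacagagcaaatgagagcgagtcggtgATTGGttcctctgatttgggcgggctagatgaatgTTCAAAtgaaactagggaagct
Mcm2 (GRCr8 chr4:122918095-122918244, minus strand): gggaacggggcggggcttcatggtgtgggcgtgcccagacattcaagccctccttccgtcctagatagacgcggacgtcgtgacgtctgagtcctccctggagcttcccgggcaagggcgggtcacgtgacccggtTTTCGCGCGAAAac
Mcm7 (GRCr8 chr12:22163179-22163328, minus strand): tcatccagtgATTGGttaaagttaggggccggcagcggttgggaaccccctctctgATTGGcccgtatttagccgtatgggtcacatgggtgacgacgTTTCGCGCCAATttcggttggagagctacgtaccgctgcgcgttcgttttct
Rrm1 (GRCr8 chr1:166235754-166235903, plus strand): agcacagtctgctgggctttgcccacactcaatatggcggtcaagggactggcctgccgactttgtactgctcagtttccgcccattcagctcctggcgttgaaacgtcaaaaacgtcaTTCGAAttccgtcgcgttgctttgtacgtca
Ccne1 (GRCr8 chr1:99927910-99928059, minus strand): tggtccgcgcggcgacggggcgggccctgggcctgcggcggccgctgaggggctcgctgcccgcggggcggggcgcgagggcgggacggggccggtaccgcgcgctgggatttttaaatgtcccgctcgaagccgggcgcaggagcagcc

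Between 15580310 and 19870047 reads per library lie behind these tables. In each treated group 1 library stood apart. Reads fell in 14621 genes in BMSC-CT 3 and in at least 16100 in its 5 BMSC companions, and its ribosomal protein share was 13.7%, with 5.93% the next highest. That share was 2.64% in BF-D 2, with 1.70% the next highest among BF libraries. Both libraries ran high for short genes and low for long ones, with a Spearman rho across genes of -0.404 and -0.356 between deviation and gene length. Results are therefore given with and without BMSC-CT 3 where they differ, and the part of RNA quality in them was not tested. Markers of the labelled and of other cell types were checked. A list of 17 macrophage genes took 0.913% to 1.10% of reads in BMSC-C and 1.20% to 1.47% in BMSC-CT. In BF-C the 13 of them with a row took 0.00433% to 0.00461%, with Mrc1 at 0 reads, and in BF-D 0.00611% to 0.00663%. A list of 13 stromal genes took 1.22% to 1.52%, 0.740% to 1.52%, 6.86% to 7.07% and 5.52% to 6.45% in BMSC-C, BMSC-CT, BF-C and BF-D. Among 10 hyaline cartilage markers, Col2a1 stood at a mean of 0.166 RPM in BF-C (RPM is a gene's reads as a share of all reads of its library, times 1000000) and Acan at 0.208 in BMSC-C. The transcription factor Sox9 had means of 1.58 in BMSC-C and 3.27 in BF-C, and Sox5 4.47 and 10.1. The 9 genes read in each table summed to 34.8 to 57.1 RPM in BMSC-C, 36.4 to 155 in BMSC-CT, 489 to 516 in BF-C and 331 to 407 in BF-D, most of it from Col11a1, which had a mean of 490 in BF-C. The macrophage and stromal sums hide genes that went opposite ways. From BMSC-C to BMSC-CT, mean Lyz2 went from 4066 to 8102 RPM and Adgre1 from 3145 to 963. Col1a1, at 46887 in BF-C, went from 1645 to 6614, and Dcn from 8672 to 1897. In normalized counts 8 macrophage genes lay wholly above BMSC-C and 7 below, and 4 stromal genes above and 9 below, where 23.3% and 28.9% of all genes did so.

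As a sum the mitosis genes were much higher in the fibrotic cells than in the BMSCs, while single replication genes went both ways. Summed over its 18 measured genes, the mitosis module took 25.9, 23.8 and 20.6 RPM in BMSC-C 1 to 3 and 24.0, 20.6 and 19.2 in BMSC-CT 1 to 3. It took 90.2, 90.2 and 98.0 in BF-C 1 to 3, and 90.2, 91.1 and 89.2 in BF-D 1 to 3. The 17 replication genes together took 262 to 285 RPM for BMSC-C and 163 to 217 for BMSC-CT, with 215 to 225 for BF-C and 210 to 230 for BF-D. This sum, and the ratio below, rest largely on a few abundant genes. Among them Mcm7, Pcna and Rrm1 had means of 52.4, 49.8 and 44.7 RPM in BMSC-C and were lower in BF-C. Of all 17 replication genes, 8 were lower and 8 higher in BF-C than in BMSC-C without overlap. The ratio of the mitosis sum to the replication sum was 0.422 ± 0.0234 (mean ± SD, n = 3) for BF-C and 0.416 ± 0.0172 for BF-D. For BMSC-C it was 0.0850 ± 0.00615, and for BMSC-CT 0.111 ± 0.00590. The BMSC and BF ranges of this ratio do not overlap, and neither do those of BMSC-C and BMSC-CT, whereas BF-C and BF-D overlap. The higher ratio of BMSC-CT went with a lower replication sum (mean 192 against 275 RPM in BMSC-C). Its mitosis sum was not higher (mean 21.3 against 23.4). Scaled to total reads, however, the median log2 fold change of all genes from BMSC-C to BMSC-CT was itself -0.53. In RPM 36.9% of all genes were lower without overlap and 15.3% were higher. A lower sum in RPM is thus not particular to the replication genes. The BMSC and BF tables were normalized separately, so levels across them are set side by side as RPM and were not tested. In such bulk samples fewer cells of a type and less RNA per cell cannot be told apart. The macrophage share differs between the BMSC and BF groups as given above, and its part in these differences was not tested.

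**Figure D1:**
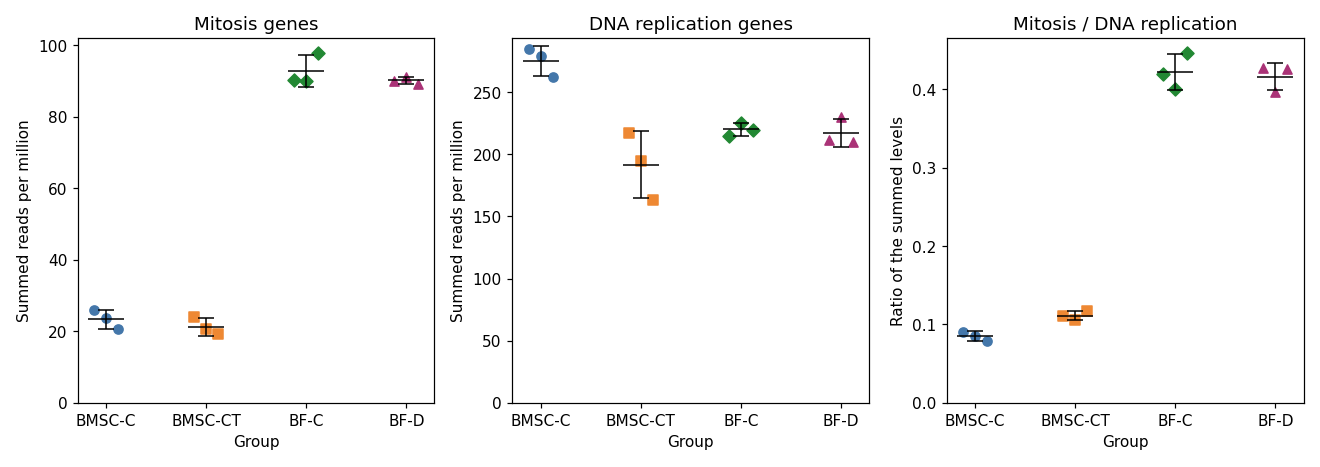
Summed level of the 18 mitosis genes (left) and 17 DNA replication genes (middle), in RPM, and the ratio of these sums (right), by group. Points are libraries, and the black bar and whiskers are the mean ± SD of 3 libraries: the BF groups stand at 89.2 to 98.0 RPM for mitosis against 19.2 to 25.9 in the BMSC groups, while the replication sums lie between 163 and 285 in all 4 groups.

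Gene by gene, 17 of 18 mitosis members were higher in every BF-C library than in every BMSC-C library and none was lower, where 28.4% of 16868 genes were higher without overlap and 31.4% were lower. The median mitosis gene stood 4.90 times as high in BF-C (range 1.12 to 14.4 times), against 0.972 times for the median of all genes. Among replication members 8 were higher and 8 lower without overlap, with a median of 1.41 times (0.497 to 4.15). A wider list of mitosis genes, not members of the set, had 43 of 58 higher and 2 lower (median 3.09 times), and a wider list of replication genes had 14 of 49 higher and 9 lower (median 1.07 times). Against BMSC-CT, the median of all genes was itself 1.41 times as high in BF-C, and 43.0% of genes were higher and 22.5% lower without overlap. There 16 of 18 mitosis members were higher and 1 was lower (median 5.38 times), and 8 of 17 replication members were higher and 4 lower (median 1.67 times).

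**Figure D2:**
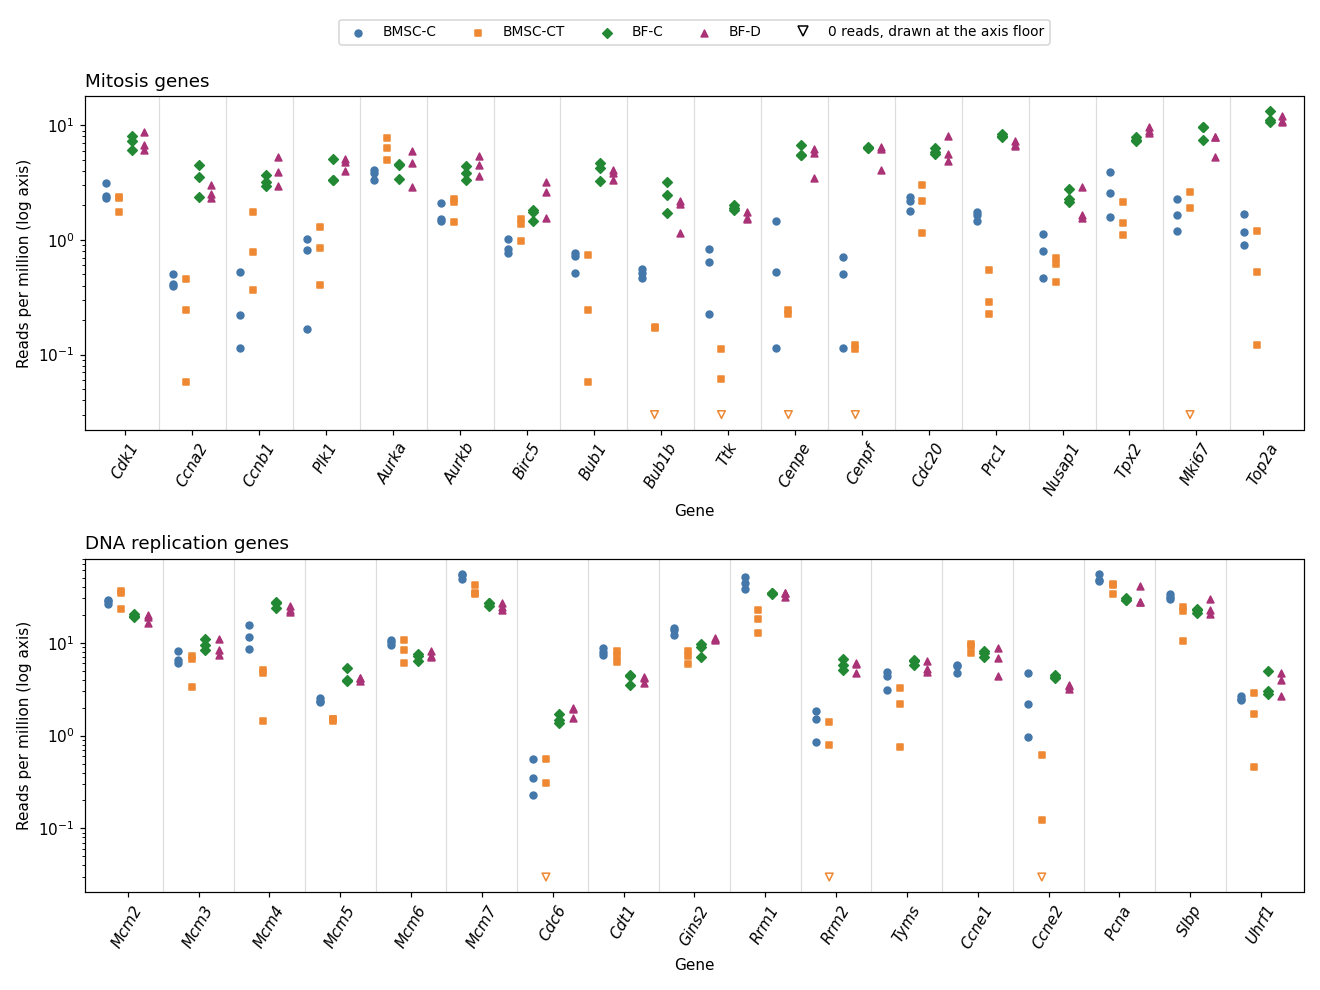
Level of each measured member in each of the 12 libraries, in RPM on a log axis, mitosis genes above and DNA replication genes below. Open triangles mark libraries with 0 reads. The BF points of the mitosis genes lie above the BMSC points for all but a few genes such as Aurka, while replication genes such as Mcm7 and Pcna lie lower in BF than in BMSC-C.

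Among cyclins and CDK1, Cdk1, the kinase that starts mitosis, stood at 2.40, 3.17 and 2.33 RPM in BMSC-C 1 to 3 and 1.75, 2.32 and 2.37 in BMSC-CT 1 to 3. It stood at 7.30, 6.09 and 8.02 in BF-C 1 to 3 and 6.74, 8.79 and 6.06 in BF-D 1 to 3, above every BMSC library. Per length it was the highest mitosis member in BMSC-C, at 1.87 ± 0.329 RPKM (RPM per kb of the deposited gene length), and in BF-C, at 5.06 ± 0.689 RPKM. Its partner cyclins were lower per length, at 0.185 ± 0.0240 (Ccna2) and 0.180 ± 0.134 (Ccnb1) RPKM in BMSC-C. Ccna2 went from 0.437 ± 0.0568 RPM in BMSC-C to 3.49 ± 1.09 in BF-C, and Ccnb1, which switches Cdk1 on at mitotic entry, from 0.288 ± 0.215 to 3.29 ± 0.385. Ccna2 overlaps Exosc9 on the opposite strand, and the sources used here do not say whether counting used strand, so its level is uncertain.

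Aurka, the kinase of the spindle poles, was the mitosis member that did not follow the module. It read 3.35, 3.81 and 4.04 RPM in BMSC-C 1 to 3 and 6.33, 4.95 and 7.81 in BMSC-CT 1 to 3. In BF-C 1 to 3 it read 3.37, 4.63 and 4.48, and in BF-D 1 to 3 4.69, 5.98 and 2.87. Its BF-C and BMSC-C libraries overlap, and its BMSC-CT libraries lie above all of BF-C. Birc5 (survivin), which joins Aurkb in the chromosomal passenger complex, also overlapped between BF-C and BMSC-CT, at 1.68 ± 0.192 and 1.30 ± 0.285 RPM. Plk1, a kinase of mitotic entry and spindle assembly, had 0.671 ± 0.448 in BMSC-C and 3.90 ± 1.02 in BF-C, and Aurkb 1.71 ± 0.359 and 3.86 ± 0.510.

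At the kinetochore, where chromosomes meet the spindle, all 6 members were higher in every BF-C library than in every BMSC-C library. Cenpf, a large kinetochore and nuclear matrix protein, had 0.440 ± 0.300 RPM in BMSC-C and 6.35 ± 0.0526 in BF-C, 14.4 times as high. Cenpe, the kinetochore motor, had 0.698 ± 0.684 and 5.94 ± 0.687. The checkpoint kinase Bub1 had 0.667 ± 0.135 and 4.08 ± 0.760, and Ttk, the kinase that starts the checkpoint, 0.570 ± 0.312 and 1.92 ± 0.0821. Bub1b, which blocks the anaphase-promoting complex, had 0.513 ± 0.0444 and 2.45 ± 0.732. Cdc20, the activator of that complex, ranked below only Cdk1 and Aurka per length in BMSC-C, at 1.19 ± 0.172 RPKM. It had 1.79, 2.17 and 2.39 in BMSC-C 1 to 3 and 2.20, 2.99 and 1.16 RPM in BMSC-CT 1 to 3. It had 6.34, 5.59 and 5.84 in BF-C 1 to 3 and 5.58, 8.03 and 4.91 in BF-D 1 to 3, with no BF library as low as any BMSC library.

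Of the spindle and midzone genes, Tpx2, a spindle assembly factor that activates Aurka, had 3.91, 2.58 and 1.59 RPM in BMSC-C 1 to 3 and 1.41, 2.14 and 1.10 in BMSC-CT 1 to 3. It had 7.40, 7.30 and 7.96 in BF-C 1 to 3 and 9.56, 8.85 and 8.48 in BF-D 1 to 3, so that BF-D lies above BF-C and both lie above the BMSCs. Prc1, which bundles microtubules of the midzone, stood at 1.62 ± 0.158 in BMSC-C and 8.14 ± 0.279 in BF-C, and Nusap1, a spindle-binding protein, at 0.794 ± 0.323 and 2.39 ± 0.353. Top2a, the topoisomerase that untangles sister chromosomes, had 1.67, 1.17 and 0.910 in BMSC-C 1 to 3 and 1.19, 0.122 and 0.521 in BMSC-CT 1 to 3. In BF-C 1 to 3 it had 10.7, 11.1 and 13.2, and in BF-D 1 to 3 11.0, 10.8 and 12.1, with no overlap between BF and BMSC libraries. Mki67, the source of the Ki-67 proliferation antigen, had 1.71 ± 0.550 in BMSC-C and 8.88 ± 1.26 in BF-C.

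The replication genes split by member. In BF-C all of Mcm2, Mcm6, Mcm7, Cdt1, Gins2, Rrm1, Pcna and Slbp were lower than in BMSC-C, and Mcm3, Mcm4, Mcm5, Cdc6, Rrm2, Tyms, Ccne1 and Uhrf1 were higher, each without overlap, while Ccne2 overlapped. Mcm7 had 48.9, 53.8 and 54.4 RPM in BMSC-C 1 to 3 and 33.6, 34.5 and 42.3 in BMSC-CT 1 to 3. It had 26.8, 24.6 and 26.7 in BF-C 1 to 3 and 24.1, 27.1 and 22.5 in BF-D 1 to 3. Pcna, the sliding clamp of DNA polymerases, had 46.8, 55.2 and 47.6 in BMSC-C 1 to 3 and 43.2, 33.2 and 41.5 in BMSC-CT 1 to 3. In BF-C 1 to 3 it had 30.1, 28.5 and 28.6, and in BF-D 1 to 3 27.3, 40.4 and 27.4, with BF-D 2, the library that stands apart, as its highest BF value. Both genes were higher in BMSC-C than in every BF library.

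The 6 subunits of the MCM2-7 helicase act as 1 ring with a single copy of each, but their transcripts were far from equal per length. In BMSC-C the order was Mcm7 (21.1 ± 1.20 RPKM), Mcm2 (8.51 ± 0.403), Mcm4 (3.55 ± 1.04), Mcm6 (3.46 ± 0.229), Mcm3 (2.35 ± 0.364) and Mcm5 (0.752 ± 0.0383). Mcm4 and Mcm6 do not differ beyond their spread in that order. Mcm7 stood 28.0 times as high as Mcm5 in BMSC-C and 31.3 times in BMSC-CT, against 7.59 times in BF-C and 7.71 times in BF-D. In BF-C Mcm4 stood in second place of these 6 at 7.76 ± 0.593, below Mcm7 at 10.5 ± 0.505 and above Mcm2 at 6.0 ± 0.259. Mcm7 hosts the microRNAs Mir106b, Mir93 and Mir25 in its introns, and lengths are those of the deposited tables, so a level per length depends on the gene model.

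**Figure D3:**
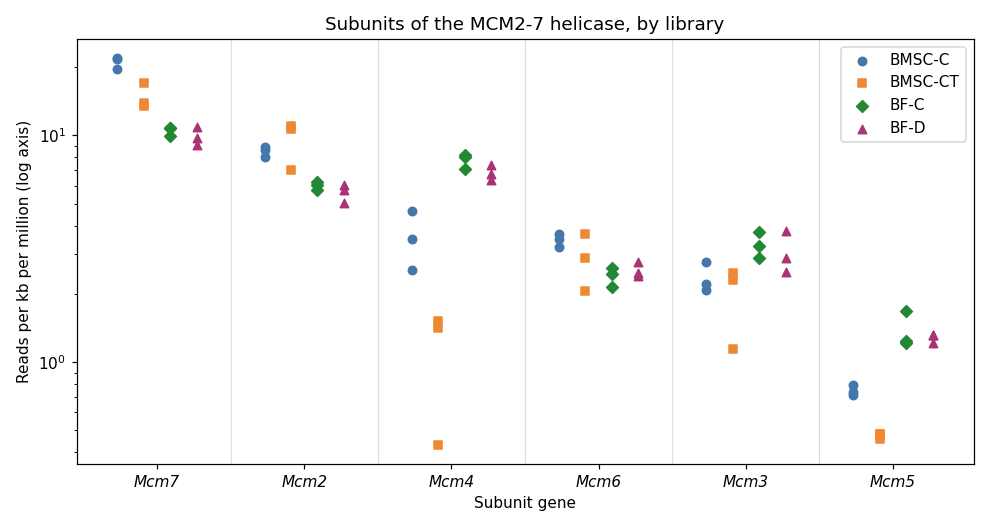
Level of the 6 subunit genes of the MCM2-7 helicase in each library, in RPKM on a log axis. Mcm7 leads in every group, Mcm5 is lowest in the group means, and on this axis Mcm4 spans the widest range of group means, from a mean of 1.12 in BMSC-CT to 7.76 in BF-C.

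The other loading factors differed in the same divided way. Cdc6, which brings the helicase to origins, was the lowest replication gene per length in BMSC-C (0.124 ± 0.0547 RPKM). It had 0.379 ± 0.167 RPM in BMSC-C and 1.51 ± 0.181 in BF-C, whereas its partner Cdt1 went from 8.07 ± 0.702 to 4.15 ± 0.547. Gins2, a subunit of the active helicase, went from 13.5 ± 1.16 to 8.54 ± 1.42. The ribonucleotide reductase subunits, which make deoxynucleotides, went opposite ways: Rrm1, the large subunit, had 44.7 ± 6.56 in BMSC-C and 34.1 ± 0.591 in BF-C, and Rrm2, the subunit whose supply follows the cell cycle, 1.41 ± 0.505 and 5.84 ± 0.799. Tyms, which makes thymidylate, had 4.12 ± 0.934 and 6.21 ± 0.377. Slbp, the histone mRNA binding protein, had 31.2 ± 1.91 and 22.3 ± 1.19, and Uhrf1, which carries DNA methylation through replication, 2.51 ± 0.150 and 3.62 ± 1.21.

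Between BMSC-CT and BMSC-C, 1 replication gene passed the test in each direction, and no mitosis gene passed it across all libraries. Values in this comparison are normalized counts of the deposited table, fold changes are differences of log2(normalized count + 1), which understate the change of low genes, and a gene was called at a limma adjusted p under 0.05. Of 17 replication genes 1 was called higher and 1 lower, where 7.70% of 16818 genes were called higher and 10.9% lower. Neither count thus exceeds the share of all genes. Of 18 mitosis genes limma called 0 higher and 0 lower, and at an unadjusted limma p below 0.05 it found 1 higher and 2 lower, where 38.6% of all genes passed that level in either direction. For mitosis genes edgeR called 0 and 0 (over all genes 8.05% higher and 9.51% lower), and DESeq2 1 higher and 1 lower (34.1% in either direction). The median log2 fold change was -0.47 for mitosis genes and -0.38 for replication genes, beside -0.15 for all genes.

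Ccne1, the cyclin that starts S phase with CDK2, read 82.1, 82.1 and 72.8 normalized counts in BMSC-C 1 to 3 and 146, 167 and 214 in BMSC-CT 1 to 3. The groups did not overlap, and Ccne1 rose by 1.13 on the log2 scale (SE 0.28, limma adjusted p = 0.0372). Rrm1 read 750, 640 and 584 in BMSC-C 1 to 3 and 364, 309 and 357 in BMSC-CT 1 to 3, every treated library below every control. It fell by 0.93 (SE 0.21, limma adjusted p = 0.0282). Each of these calls was lost when BMSC-C 1, BMSC-C 2, BMSC-C 3 or BMSC-CT 2 was left out, with limma adjusted p-values up to 0.142 for Ccne1 and 0.128 for Rrm1. Neither was lost without BMSC-CT 3 (limma adjusted p = 0.00780 and 0.00277). Rrm1 missed the threshold with the length trend of the libraries removed (limma adjusted p = 0.0540), and Ccne1 missed it when scaled to total reads (0.124).

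Ccne2, the second cyclin E gene, read 68.3, 31.3 and 14.7 in BMSC-C 1 to 3 and 9.95, 2.11 and 0 in BMSC-CT 1 to 3. All treated libraries were lower, on 11 reads or fewer, yet the log2 fold change of -3.34 (SE 0.99) missed the threshold (limma adjusted p = 0.0604) and passed it without BMSC-CT 3 (-2.49, adjusted p = 0.0253). The 2 cyclin E genes thus stood on opposite sides of their controls. Ccne2 overlaps Ints8 on the opposite strand, so its reads are uncertain in the way stated for Ccna2. Differences inside the helicase also lay on both sides. Mcm2 read 383, 405 and 439 in BMSC-C 1 to 3 and 576, 599 and 636 in BMSC-CT 1 to 3 (log2 0.56, SE 0.19, limma adjusted p = 0.0816), with every treated library above the controls in normalized counts but BMSC-CT 3 below them in RPM (22.9 against 26.3 to 28.8). Mcm4 read 225, 168 and 130 in BMSC-C 1 to 3 and 81.4, 81.3 and 40.3 in BMSC-CT 1 to 3 (log2 -1.39, SE 0.40, limma adjusted p = 0.0573), with every treated library below them.

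**Figure D4:**
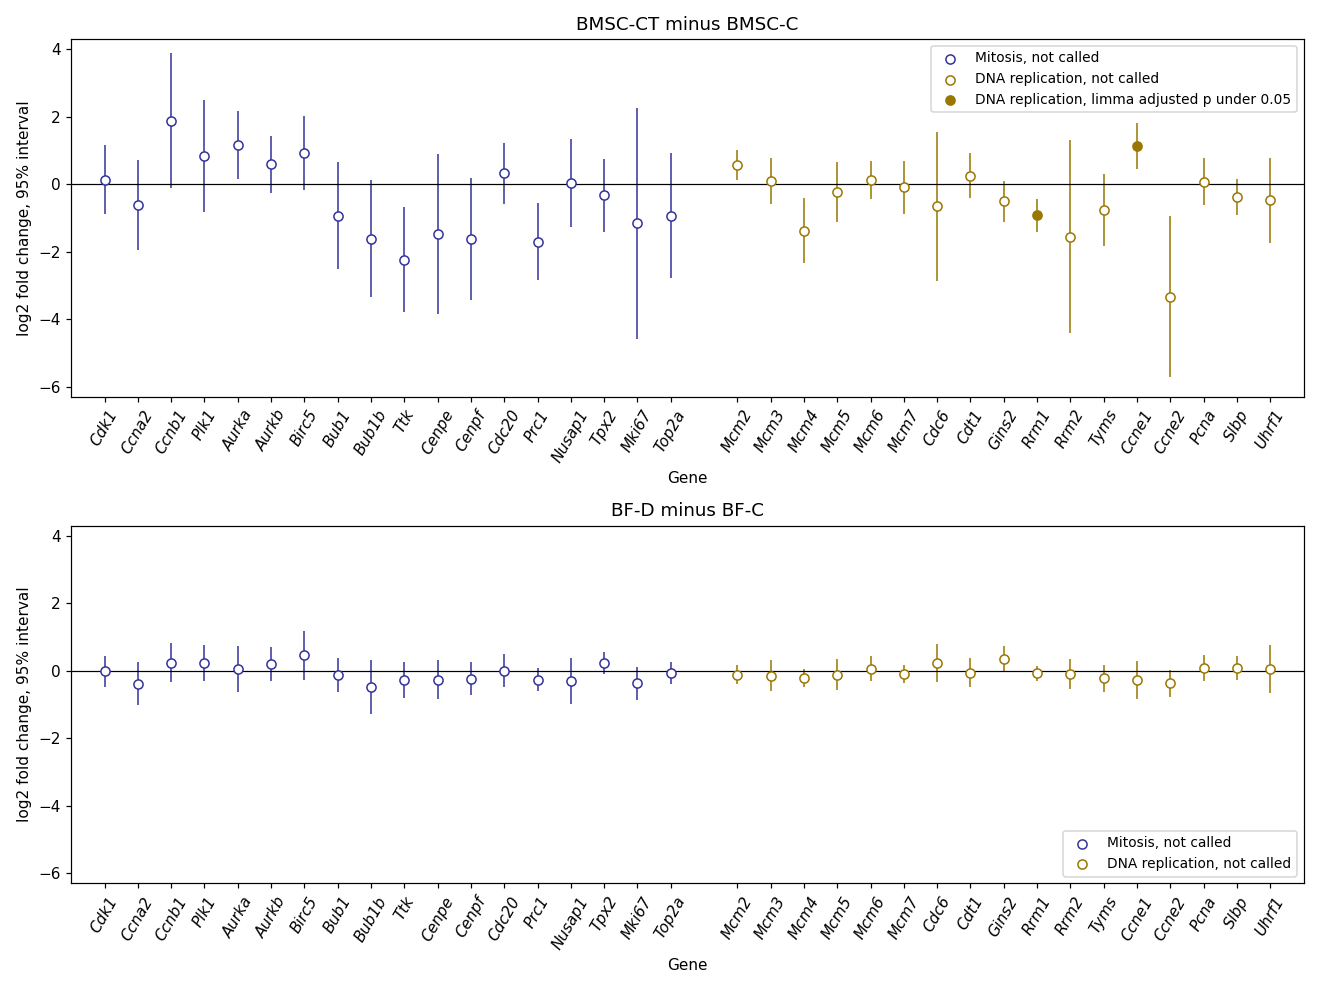
Log2 fold change of each measured member with its 95% confidence interval, for BMSC-CT minus BMSC-C (top) and BF-D minus BF-C (bottom), mitosis genes in blue and replication genes in brown. Filled points passed a limma adjusted p of 0.05: Ccne1 at 1.13 and Rrm1 at -0.93, both in the top panel. Intervals of low genes such as Mki67 are wide in the top panel, and in the bottom panel every interval spans 0.

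Without BMSC-CT 3, the library that stands apart, limma called more members: 2 replication genes higher and 5 lower, and 1 mitosis gene higher and 3 lower, while over all genes 19.5% were then called higher and 23.5% lower. The replication calls were Mcm2 and Ccne1 higher, and Mcm4, Mcm7, Gins2, Rrm1 and Ccne2 lower. Mcm7 was highest in that library: it read 713, 776 and 828 in BMSC-C 1 to 3 and 538, 596 and 1177 in BMSC-CT 1 to 3. Its log2 fold change was -0.09 with all libraries and -0.44 without BMSC-CT 3 (limma adjusted p = 0.0361). Gins2 read 199 ± 22.2 and 139 ± 20.4 in BMSC-C and BMSC-CT with no overlap, at -0.52 with all libraries and -0.63 without that library (limma adjusted p = 0.0301). In normalized counts 2 replication genes lay wholly above their controls and 5 below, and 3 mitosis genes above and 3 below, where 23.3% and 28.9% of all genes did so. In RPM 1 replication gene (Ccne1) lay above and 8 below, and 1 mitosis gene (Aurka) above and 3 below, where 15.3% and 36.9% of all genes did so.

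The mitosis genes above in normalized counts were Aurka, Aurkb and Birc5, and those below were Bub1b, Ttk and Prc1. Neither number exceeds the share of all genes, and limma called none of them with all libraries. Aurka read 48.8, 55.0 and 61.5 normalized counts in BMSC-C 1 to 3 and 101, 85.5 and 217 in BMSC-CT 1 to 3 (log2 1.16, SE 0.42, limma adjusted p = 0.0981, and 0.0419 without BMSC-CT 3). Birc5 had 12.9 ± 2.39 and 26.6 ± 11.1 (limma adjusted p = 0.179), and Aurkb 25.1 ± 5.10 and 37.8 ± 2.17 (0.256). In RPM, which scale BMSC-CT 3 differently, the groups of Birc5 and Aurkb overlap.

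Prc1 read 21.1, 23.7 and 26.9 normalized counts in BMSC-C 1 to 3 and 3.62, 9.50 and 8.05 in BMSC-CT 1 to 3 (log2 -1.71, SE 0.48, limma adjusted p = 0.0517, and 0.0142 without BMSC-CT 3). All its treated libraries were below the controls. Ttk had 15, 11 and 4 reads in BMSC-C 1 to 3 and 2, 1 and 0 in BMSC-CT 1 to 3, a ratio of 0.133 (exact 95% interval 0.0260 to 0.429, covering counting error only) and a limma adjusted p of 0.0576, or 0.0445 without BMSC-CT 3. Bub1b stood at 7.57 ± 0.710 and 2.51 ± 2.42, with a limma adjusted p of 0.149 that became 0.0302 without BMSC-CT 3. In the authors' deposited table, Aurka was higher (adjusted p = 0.0265) and Prc1 lower (0.0148), and of replication genes 2 were higher and 3 lower, where that table calls 14.5% of genes in each direction.

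The remaining members could not be called in this comparison, and the mitosis genes among them rest on few reads in BMSCs. Cdk1 read 38.7 ± 6.03 in BMSC-C and 44.7 ± 19.4 in BMSC-CT (log2 0.13, 95% interval -0.90 to 1.15). Mki67 read 33.3, 23.7 and 18.2 in BMSC-C 1 to 3 and 41.6, 32.7 and 0 in BMSC-CT 1 to 3, so its sign turned on BMSC-CT 3 (log2 -1.17 with it and 0.58 without). A count of 0 there allows up to 3 reads, or 4.83 normalized counts. Ccnb1 had 2 to 9 reads per BMSC-C library and 6 to 30 per BMSC-CT library (log2 1.87, 95% interval -0.12 to 3.87). Of the 18 mitosis genes, 0 had an interval that lay wholly within a 2-fold change in either direction, and of the 17 replication genes 6 did. Differences of that size were thus mostly not detectable for mitosis genes at this depth and spread.

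Outside the members, 1 of 10 G1 cyclins and kinases and 4 of 21 tested cell cycle brakes were called, beside the 7.70% higher and 10.9% lower of all genes. Ccnd1 (cyclin D1), which relays growth signals to the retinoblastoma brake, read 3954, 3689 and 4413 in BMSC-C 1 to 3 and 663, 647 and 594 in BMSC-CT 1 to 3, far apart. It fell by 2.66 (SE 0.18, limma adjusted p = 0.000634), as the 1 called cyclin of that list, and it stayed called when each library was left out (limma adjusted p up to 0.0114). Of the brakes 3 rose and 1 fell. Cdkn1a (p21), an inhibitor of cyclin-dependent kinases, read 2910, 2885 and 3839 in BMSC-C 1 to 3 and 6544, 7747 and 11888 in BMSC-CT 1 to 3, with no overlap (log2 1.41, SE 0.28, limma adjusted p = 0.0201). Cdkn2b (p15), an inhibitor induced by TGF-β in many cells, rose by 1.00 (limma adjusted p = 0.0185), and Cdkn1b (p27) fell by 1.07 (0.0380). The brake not yet named is Fzr1, an activator of the anaphase-promoting complex in G1, which rose by 0.82 (limma adjusted p = 0.0481) and lies outside the naming rule. Each of these 4 brake calls was lost without BMSC-C 1, BMSC-C 2, BMSC-C 3 or BMSC-CT 2, with limma adjusted p-values up to 0.104 for Cdkn1a, 0.0900 for Cdkn2b, 0.161 for Cdkn1b and 0.178 for Fzr1.

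Among 10 transcription activators of the cell cycle, E2f2 rose by 1.35 (limma adjusted p = 0.0347) and Nfyb, a subunit of the CCAAT factor NF-Y, fell by 1.23 (0.0426). Over all genes 7.70% were called higher and 10.9% lower. Of 56 tested genes on the wider mitosis list 2 rose and 4 fell. Incenp, the scaffold of the passenger complex that holds Aurkb and Birc5, rose from 122 ± 24.8 to 438 ± 129 normalized counts (log2 1.80, limma adjusted p = 0.0148). Casc5, a kinetochore scaffold, fell from 29.7 ± 15.6 to 3.33 ± 0.246 (log2 -2.71, limma adjusted p = 0.0160). Kif15, a spindle motor, fell from 46 reads over BMSC-C to 1 over BMSC-CT, a ratio of 0.0290 (exact 95% interval 0.000718 to 0.170, covering counting error only, limma adjusted p = 0.0119). Of 49 wider replication genes 2 rose and 2 fell, with the origin recognition subunits Orc2 (log2 -1.62, limma adjusted p = 0.0154) and Orc4 (-1.62, 0.0270) lower and the chromatin assembly subunit Chaf1b higher (1.96, 0.0158). Calls on the wider mitosis and replication lists thus lay in both directions, and no count on them exceeds the share of all genes. Each call named here was lost without BMSC-C 1 or BMSC-C 2, and all but Kif15 also without BMSC-CT 2. Those of E2f2, Nfyb, Incenp and Chaf1b were lost without BMSC-C 3 too, and that of E2f2 without BMSC-CT 1. The highest limma adjusted p-values lay between 0.0708 for Kif15 and 0.175 for Nfyb.

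Docetaxel gave no called change in any of the 35 members. Limma called 0 of 18 mitosis genes and 0 of 17 replication genes in either direction, and 0.00586% of 17076 genes in each direction. At an unadjusted p under 0.05 the counts for members were also 0, where 6.20% of all genes passed in either direction. EdgeR (0.00586% of all genes each way) and DESeq2 (0.489% in either direction) called 0, and so did limma without BF-D 2 (0.729% higher and 0.811% lower). The lowest unadjusted p was 0.105 for mitosis and 0.0553 for replication genes, and the smallest limma adjusted p was 0.706. In the authors' deposited table the lowest adjusted p among members was 0.855. Median log2 fold changes were -0.10 in both modules, beside -0.00 for all genes.

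The docetaxel intervals were narrower than those of the CTGF and TGF-β1 comparison. For 15 of 18 mitosis genes and 17 of 17 replication genes the 95% interval of the difference lay within a 2-fold change in both directions. The widest bounds reached -1.27 and 1.18 for mitosis genes and -0.85 and 0.80 for replication genes on the log2 scale. Of 67 simulated 2-fold changes, drawn with each gene's spread but without the length trend of BF-D 2, 22 were called. Of 67 simulated 4-fold changes 52 were called, and these rates are a rough guide only.

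By role, the cyclin module showed Cdk1 at 123, 103 and 134 normalized counts in BF-C 1 to 3 and 112, 145 and 99.5 in BF-D 1 to 3 (log2 -0.02, 95% interval -0.47 to 0.44). Ccnb1, the cyclin that accumulates until anaphase, had 55.1 ± 6.16 and 66.8 ± 19.3 (log2 0.24, 95% interval -0.34 to 0.82), and the groups of both genes overlapped. Plk1 had 65.3 ± 16.6 and 75.7 ± 9.60, Aurka 69.8 ± 11.4 and 74.6 ± 26.0, and Aurkb 64.7 ± 8.82 and 74.4 ± 14.7, all overlapping. The largest mitosis differences in log2 were those of Birc5 (0.46, 95% interval -0.27 to 1.18) and Bub1b (-0.47, -1.27 to 0.33). Of the checkpoint and kinetochore genes, Cenpe and Cenpf, which have the longest transcripts, read low in BF-D 2, while Bub1, Bub1b, Ttk and Cdc20 did not. Cenpe read 95.8, 57.2 and 103 and Cenpf 107, 66.9 and 102 in BF-D 1 to 3. Without BF-D 2 the log2 fold changes of Cenpe and Cenpf went from -0.26 and -0.24 to -0.00 and -0.03.

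In normalized counts 1 mitosis gene lay wholly above its controls (Tpx2) and 2 below (Ttk, Prc1), and 1 replication gene lay above (Gins2) and 2 below (Rrm1, Ccne2), where 7.78% of all genes were above and 9.04% below. Tpx2 read 125, 123 and 133 in BF-C 1 to 3 and 159, 146 and 139 in BF-D 1 to 3 (log2 0.22, 95% interval -0.10 to 0.55). Prc1 read 142, 133 and 134 in BF-C 1 to 3 and 112, 121 and 109 in BF-D 1 to 3 (log2 -0.26, 95% interval -0.59 to 0.07). In both the groups were separate but close, in opposite directions, and both intervals span 0. For Ttk the log2 fold change stayed between -0.33 and -0.23 when each library was left out. The counts of separate mitosis genes are near the shares of all genes.

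Gins2 read 117, 152 and 161 in BF-C 1 to 3 and 179, 183 and 186 in BF-D 1 to 3 (log2 0.36, 95% interval -0.01 to 0.74), the largest positive difference of a replication gene. Ccne2 read 70.3, 71.5 and 75.7 in BF-C 1 to 3 and 53.2, 58.2 and 56.6 in BF-D 1 to 3 (log2 -0.37, 95% interval -0.77 to 0.03). Ccne1 read 138, 130 and 118 in BF-C 1 to 3 and 73.4, 144 and 113 in BF-D 1 to 3, with overlap. Rrm1, the replication gene called lower after CTGF and TGF-β1, was close in both groups here though without overlap, at 573 ± 8.85 and 546 ± 26.5 (log2 -0.07, 95% interval -0.29 to 0.15).

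Mcm7 (436 ± 20.4 and 406 ± 39.5), Mcm2 (328 ± 15.8 and 302 ± 28.6) and Pcna (488 ± 16.5 and 524 ± 126) overlapped between BF-C and BF-D. Top2a read 180, 187 and 220 in BF-C 1 to 3 and 182, 178 and 198 in BF-D 1 to 3, and Mki67 162, 125 and 160 and 132, 87.3 and 129, in each case with overlap. Cdkn1a read 6292, 6713 and 6794 in BF-C 1 to 3 and 6861, 8894 and 6677 in BF-D 1 to 3 (limma adjusted p = 0.706), with BF-D 2 highest. Over the 5 wider cell cycle lists limma, edgeR and DESeq2 called 0 genes in this comparison, with 1 higher and 4 lower at an unadjusted limma p under 0.05 (6.20% of all genes, as above). Without BF-D 2, Ccnd1 alone among them was called, higher by 0.46 (SE 0.05, limma adjusted p = 0.000307), against 0.34 with all libraries (0.706). In that fit 0.729% of all genes were called higher and 0.811% lower, so 1 call over these lists is near the share of all genes.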

How the data were processed

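RNA was sequenced in 12 rat libraries. Bowtie 0.12.2 and mm8 are named in the submitters' processing notes. Because mm8 is a mouse build while the gene IDs are rat Ensembl IDs, coordinates of the tables were left out. How reads were assigned to genes is not given in the sources used here. The authors deposited 1 table per comparison with normalized counts (a signal, not raw counts), and with their own log2 fold changes and p-values, printed only where named as theirs. Gene lengths are as deposited.

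All deposited values were whole multiples of 1 read per library (100% within 0.01), so that a single read stood for 0.813 to 1.61 normalized counts. The recovered reads gave RPM and were used for edgeR 4.0.16 (quasi-likelihood) and DESeq2 1.42.0 as alternatives. The main test was limma 3.58.1 (trend) in R 4.3.3 on normalized counts as log2(value + 1), keeping genes whose mean was 1 or more, with Benjamini-Hochberg adjustment over all genes of a table. All 35 members with a row passed that filter. Fits used the 6 libraries of a comparison, without covariates. IDs without a symbol (904 and 745) took 0.641% to 1.55% of reads and were tested but not named, and 0 columns were left without a sample. Levels between tables were compared over 16868 genes with at least 1 read on average, without a test. Sequences are from RefSeq (GRCr8).

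Simulated data drew reads gene by gene from each comparison's own spread, without the length trend of the libraries, and few genes were changed. In them limma called 0 of 67 2-fold, 7 of 67 4-fold and 45 of 66 16-fold changes among 16818 genes for BMSC-CT, with 3 false calls. For BF-D it called 22, 52 and 57 among 17076, with 14 false calls. These rates do not give the detection limit of the BMSC comparison. Far more genes differed there, which loosens the adjusted threshold, and Rrm1 was called at less than a 2-fold change. Alternatives covered pseudocounts, filters, scaling, tests, weights, length trend, replicate block and each library left out.

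Every measured member was tested in both comparisons and is drawn in the figures, but the text does not give values for each of them. Values of each library were given for called members, for the most abundant member of each role and for further members chosen after their values were seen (Prc1, Ttk, Mcm2, Mcm4, Ccne2, Mki67, Gins2, Cenpe and Cenpf). Of each wider list up to 3 called genes with the smallest adjusted p were named, and Cdkn1a always. Of the marker lists, Lyz2, Adgre1, Mrc1, Col1a1, Dcn, Acan, Col2a1, Sox9, Sox5 and Col11a1 were named, all but Col11a1 chosen after their values were seen. Members and lists were chosen with earlier results of these data known. The lists of enriched terms and protein interactions were not used.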

Additional observations from a re-analysis of the deposited data

How the results depend on the processing

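For docetaxel, 0 members were called under any of the 17 alternatives, which changed the pseudocount, filter, scaling, test, library weights, length trend or libraries used. For CTGF and TGF-β1, the counts of called mitosis genes were 1 higher and 1 lower with DESeq2, and 1 lower with a pseudocount of 5, a mean of at least 10, scaling to total reads or TMM. Replication counts were 2 higher and 3 lower with DESeq2, 2 and 2 with the length trend removed, 2 lower with a pseudocount of 5 and 0 higher when scaled to total reads. Library quality weights gave 3 higher and 6 lower mitosis genes and 3 higher and 8 lower replication genes. The fit of those weights stopped before it converged, with 19.3 for BMSC-CT 2 and 0.0601 for BMSC-CT 3, so its calls rest largely on 1 treated library. Leaving out each library in turn gave 0 to 1 higher and 0 to 3 lower mitosis genes and 0 to 2 higher and 0 to 5 lower replication genes. The most calls came without BMSC-CT 3, and 0 replication calls came without any 1 of the BMSC-C libraries or BMSC-CT 2, where fewer samples remain. Over all genes these ranges were 249 to 3269 higher and 487 to 3935 lower. All-gene counts were 787 higher and 1967 lower when scaled to total reads, which moved the median log2 fold change from -0.15 to -0.53. They were 2749 higher with DESeq2, 1943 higher with the length trend removed, and 5667 higher and 6690 lower with weights. For docetaxel, all-gene counts ranged over 0 to 125 higher and 0 to 139 lower when leaving out each library, with the most without BF-D 2. They were 37 and 35 with DESeq2, 72 and 53 with weights, 5 and 3 with the length trend removed, and 0 and 0 with a mean of at least 10.

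The main test was not paired, because same-numbered libraries did not all deviate together: their correlations were 0.199, -0.0209 and 0.183 in the BMSC table and 0.0140, 0.0196 and -0.00285 in the BF table, and not every library correlated best with its own number. BMSC-CT 1 and BMSC-CT 3 did so, and BMSC-CT 2 did not. With the replicate block, limma called 0 higher and 1 lower mitosis gene and 0 higher and 2 lower replication genes for CTGF and TGF-β1 (Ttk, Ccne2 and Mcm4, while Ccne1 had an adjusted p of 0.0719 and Rrm1 of 0.0515), and 0 and 0 genes over the whole table for docetaxel.

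Signs turned for members of which none was called in all libraries, and the cause was not tested. For BMSC-CT against BMSC-C, the log2 fold change turned when scaled to total reads for Cdk1 (-0.29), Cdc20 (-0.087), Nusap1 (-0.36), Mcm3 (-0.31), Mcm6 (-0.30), Cdt1 (-0.17) and Pcna (-0.35). With weights it turned for Cdk1 (-0.043), Nusap1 (-0.26), Mki67 (0.42), Mcm6 (-0.015), Cdc6 (0.021) and Pcna (-0.39), of which Pcna was then called. With the length trend removed it turned for Cdk1 (-0.14), Mcm5 (0.014), Mcm7 (0.0026) and Pcna (-0.28), and with edgeR for Nusap1 (-0.014) and Mki67 (0.018). Leaving out each library turned it for Cdk1 (-0.19 to 0.41), Nusap1 (-0.33 to 0.30), Mki67 (-2.13 to 0.58), Mcm3 (-0.0046 to 0.22), Mcm7 (-0.44 to 0.12), Cdc6 (-1.33 to 0.34) and Pcna (-0.22 to 0.29). For BF-D against BF-C, the sign turned with the length trend removed for Cenpf (0.052), Cdc20 (-0.044), Top2a (0.095) and Pcna (-0.019), with weights for Aurka (-0.036), Cdc20 (-0.14), Pcna (-0.087) and Slbp (-0.020), and when scaled to total reads for Cdk1 (0.0032). Leaving out each library turned it for Cdk1 (-0.17 to 0.099), Aurka (-0.19 to 0.34), Cdc20 (-0.20 to 0.16), Top2a (-0.13 to 0.021), Mcm5 (-0.20 to 0.041), Mcm6 (-0.0090 to 0.13), Cdt1 (-0.17 to 0.0079), Rrm2 (-0.20 to 0.011), Pcna (-0.11 to 0.18), Slbp (-0.067 to 0.20) and Uhrf1 (-0.12 to 0.31). Many mitosis genes rest on fewer than 30 reads per library in BMSCs, which limits their precision, as does the spread that BMSC-CT 3 adds to the counts above.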
